A study of Drosophila melanogaster with 9 samples.

Results

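Mitochondrial ribosomal protein genes of Drosophila melanogaster were taken by symbol, as all genes named mRpL or mRpS followed by a digit, which gave 73 of the 16727 genes in the count table. Of these, 47 are named for the large subunit and 26 for the small subunit, and 72 had enough counts to be tested. RNA-seq of polyadenylated RNA measured them in brain tumours driven by overexpression of deadpan (dpn) and E(spl)mγ, a pair of HES-type transcriptional repressors of neural stem cells, which the study calls DM. All libraries carry the same transgenes, UAS-HA-dpn and UAS-HA-mγ, switched on together with GFP in flip-out clones under an actin promoter, so no group is a normal brain. The T0 group held GFP tumour masses of the first allograft into adult w1118 host flies, and the T3 group held those of the fourth allograft. Both were grown for 8 to 10 days and pooled from 25 hosts per replicate, and no sorting step is described for them. The primary group held GFP-positive cells that were sorted by flow cytometry from collagenase-treated brains of larvae in instar 3, with 150 brains per replicate, 4 days after clone induction. Each group had 3 libraries, of 9482014 to 12988767 counts in T0, 7932772 to 12830347 counts in T3 and 11040373 to 14093032 counts in primary tumours. Nothing in the labels says that replicates came from separately started tumours, so p-values here reflect only library-to-library spread, which may be technical.

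The mitochondrial ribosome translates the few messenger RNAs made from mitochondrial DNA, whose products are all subunits of the oxidative phosphorylation complexes. Its own proteins are encoded in the nucleus, made in the cytoplasm and imported, and they assemble on ribosomal RNA made inside the organelle. Part of them descend from bacterial ribosomal proteins and part were added in the mitochondrial lineage. In Drosophila neural stem cells, oxidative phosphorylation is known to be needed for normal proliferation. The comparisons asked how this set of genes differed between allografted and primary tumour cells, and between the fourth and the first allograft.

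The summed level of the set overlapped between the groups. Summed over the 73 genes, expression was 2537, 2770 and 2515 CPM (counts relative to the TMM-scaled library size) in T0 replicates 2, 3 and 4. It was 2769, 3280 and 2727 CPM in T3 replicates 1, 2 and 4, and 2362, 3429 and 3150 CPM in primary replicates 1, 2 and 4. This order of replicates is kept for all values per library. Primary replicate 1 was the lowest of all 9 libraries. The large-subunit sum averaged 1667 ± 97.3 CPM in T0, 1860 ± 202 CPM in T3 and 1951 ± 362 CPM in primary tumours (SD, n = 3 each). The small-subunit sum averaged 940.0 ± 44.5 CPM in T0, 1065 ± 107 CPM in T3 and 1029 ± 191 CPM in primary tumours (SD, n = 3 each). In bulk RNA, fewer cells of a type and less RNA per cell cannot be told apart.

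**Figure D1:**
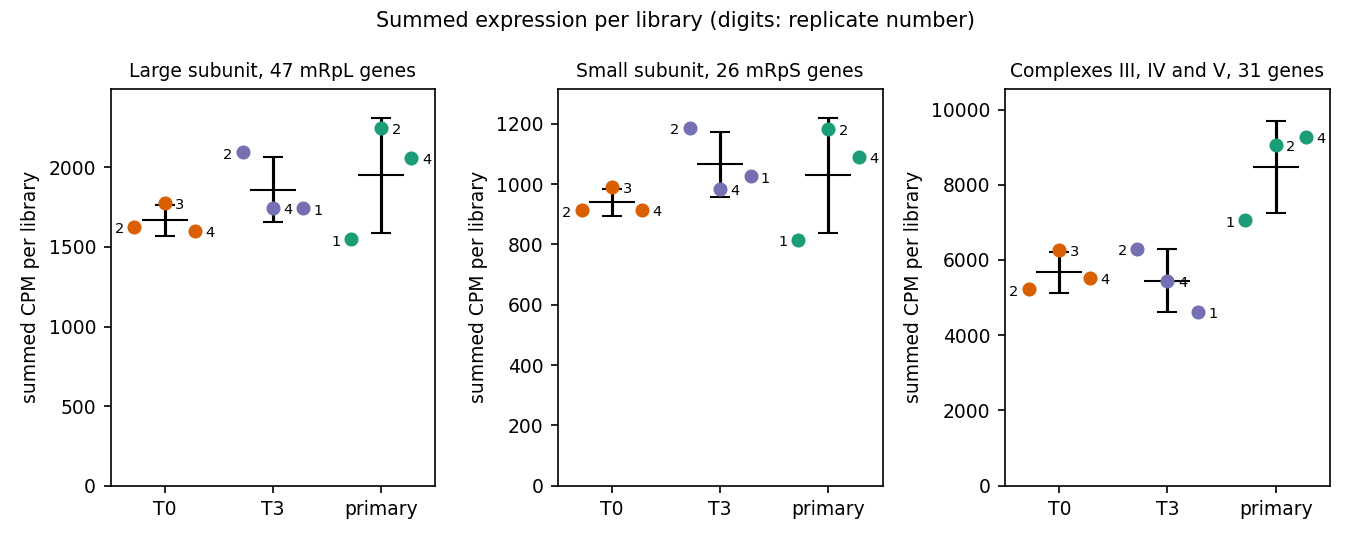
Summed CPM per library of the large-subunit genes, the small-subunit genes and the nuclear subunits of respiratory complexes III, IV and V, by group, with the replicate number beside each point and mean ± SD of 3 libraries as bars. The ribosomal sums of the 3 groups overlap, whereas all T0 and T3 libraries lie below all primary libraries for complexes III, IV and V.

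Within this sum, single genes moved in both directions. In T0 against primary tumours, edgeR's quasi-likelihood test called 22 of the 72 genes lower and 3 higher, at an adjusted p under 0.05 over all 9082 genes tested. Among all genes tested, 23.2% were called lower and 22.4% higher. In T3 against primary tumours, 10 were called lower and 7 higher, against 24.1% lower and 23.1% higher among all genes. The share of these genes called lower was thus 30.6% in T0 and 13.9% in T3, and the share called higher was 4.17% in T0 and 9.72% in T3, below that of all genes in both comparisons. The median log2 fold change over the 72 genes was -0.27 in T0 and -0.10 in T3, beside 0.01 and -0.00 over all genes tested. Fitted values were above 0 for 16 of the 72 genes in T0 and 32 in T3, against 50.6% and 50.0% of all genes. All T0 libraries were below all primary libraries for 19 of the 72 genes and above them for 3, against 27.4% and 27.4% of all genes. All T3 libraries were below all primary libraries for 9 and above them for 11, against 29.0% and 28.9% of all genes. Both comparisons use the same 3 primary libraries. All 10 genes called lower in T3 were also called lower in T0, the 3 called higher in T0 were also called higher in T3, no gene was called in opposite directions, and 43 genes were called in neither comparison.

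The count of lower genes in T0 rested on single libraries more than most values here. It was 35 without primary replicate 1 and 7 without primary replicate 2, while the share of all genes called lower was 21.8% and 19.9% in those fits. Leaving out T0 replicate 2 gave 9, and leaving out T0 replicate 4 or primary replicate 4 gave 8. Over the 17 alternatives tried, 7 of the 25 genes called in T0 kept their call in every one, namely mRpL12, mRpL13, mRpL16, mRpL20 and mRpL44 on the lower side and mRpL45 and mRpS29 on the higher side. In T3, 9 of the 17 called genes did so, these 7 together with mRpS14 on the lower side and mRpL1 on the higher side.

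**Figure D2:**
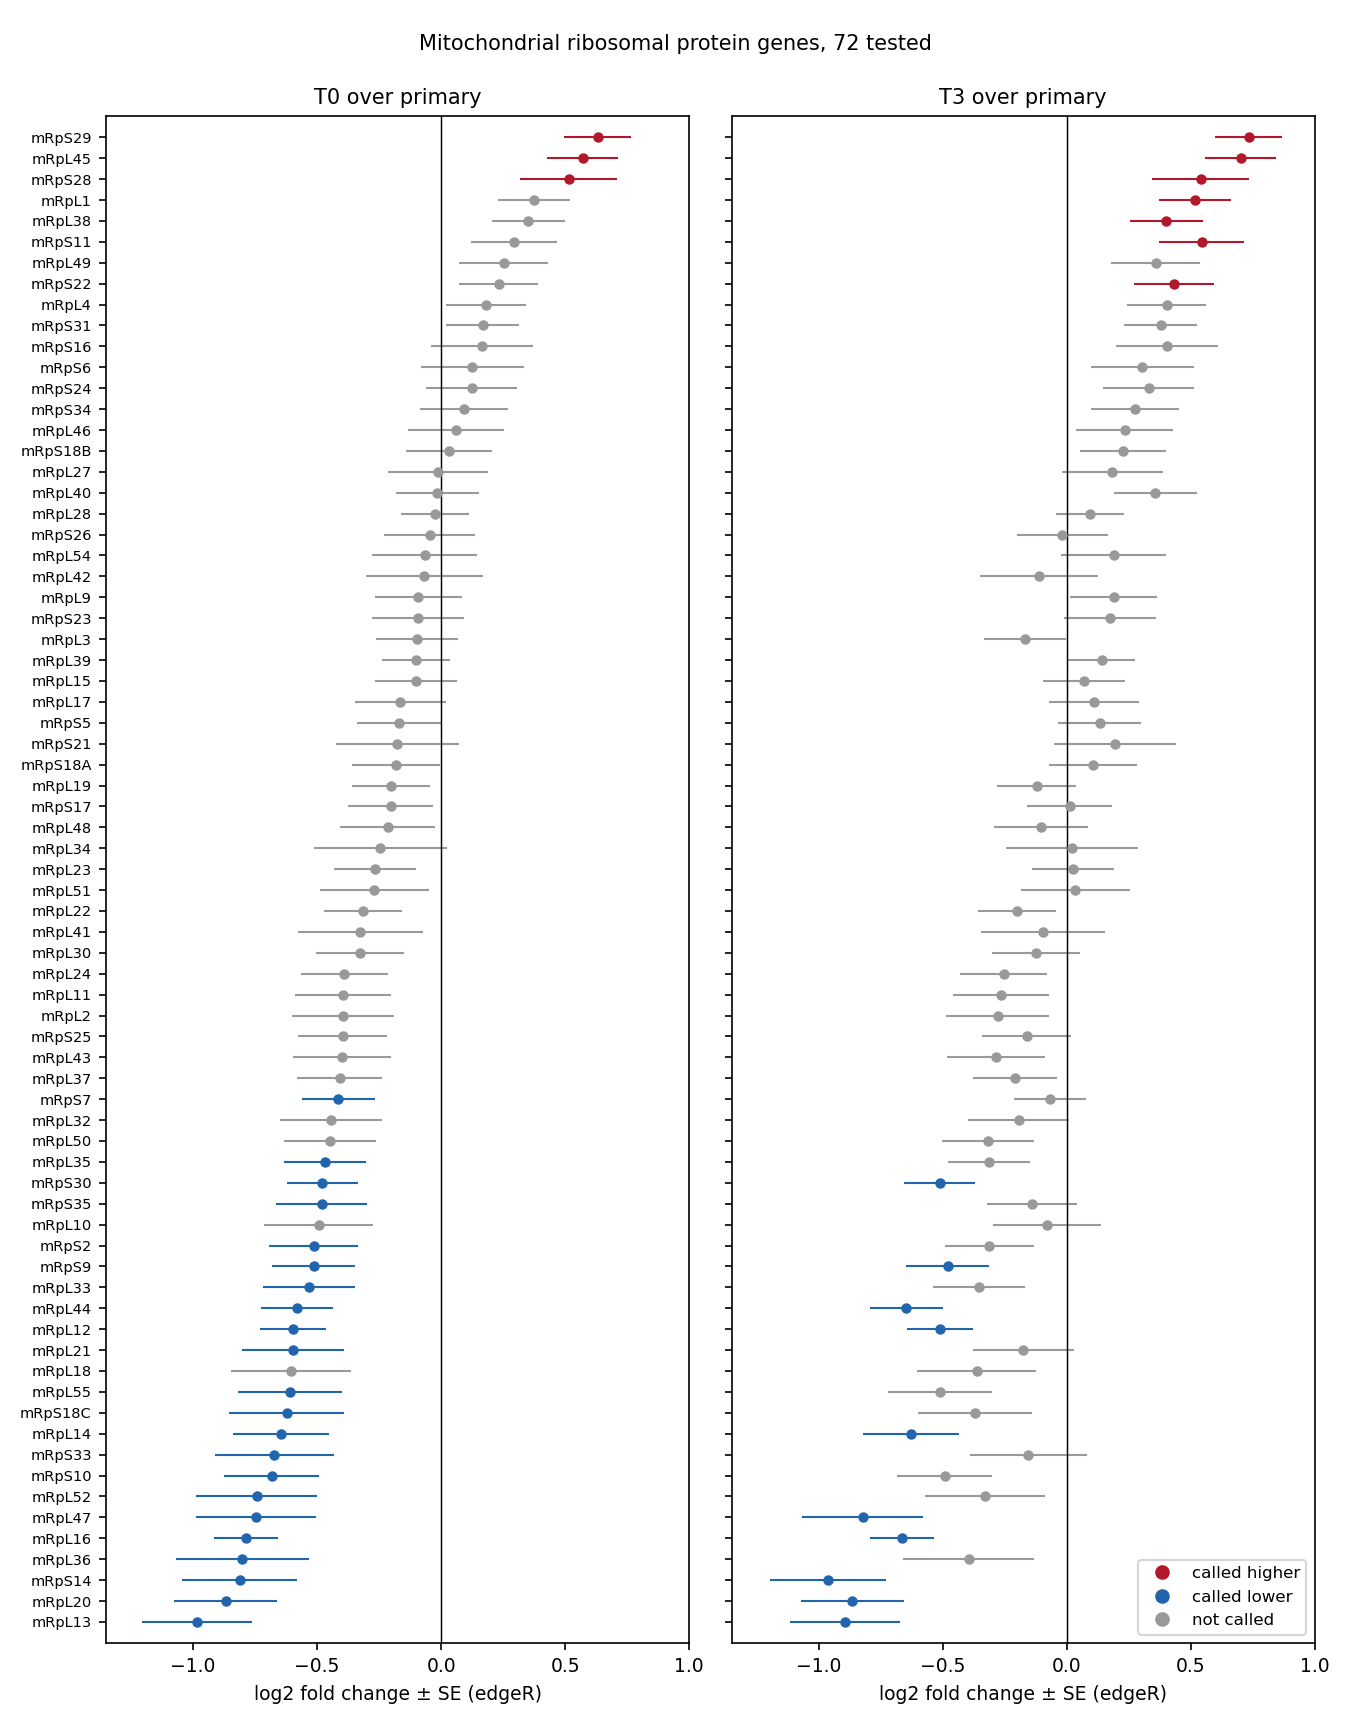
Fitted log2 fold change ± SE of each of the 72 tested genes in T0 over primary (left) and T3 over primary (right), both sorted by the T0 value and coloured by call. In T0, 16 of 72 values lie above 0, and in T3, 32 of 72 do, with mRpS29 at the top and mRpL13 at the bottom of the T0 panel.

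Among the large-subunit proteins, 13 of 46 tested genes were called lower and 1 higher in T0, with a median log2 fold change of -0.33. In T3, 7 were called lower and 3 higher, with a median of -0.15. The shares called lower were 28.3% in T0 and 15.2% in T3, beside 23.2% and 24.1% of all genes tested. Shares called higher were 2.17% and 6.52%, beside 22.4% and 23.1% of all genes. The strongest evidence was for mRpL16, whose bacterial counterpart L16 lies near the site of peptide bond formation and contacts the incoming tRNA. mRpL16 (X:1890256-1891482 in dm6, plus strand) had 58.9, 59.6 and 55.9 CPM in T0, 60.8, 64.4 and 64.7 CPM in T3, and 83.8, 110.3 and 107 CPM in primary tumours. All 6 allograft libraries were below all 3 primary libraries. Its log2 fold change was -0.79 ± 0.13 (SE, adjusted p = 4.49e-04) in T0 and -0.66 ± 0.13 (adjusted p = 0.00132) in T3. mRpL12, the counterpart of the bacterial stalk protein that recruits translation factors, had 47.8, 46.1 and 40.2 CPM in T0, 44.7, 52.1 and 45.6 CPM in T3, and 60.7, 76.1 and 66.0 CPM in primary tumours. It fell by 0.60 and 0.51 on the log2 scale in T0 and T3 (adjusted p = 0.00335 and 0.00801). The other 2 genes of that stalk, mRpL10 and mRpL11, did not pass the test, with log2 fold changes of -0.49 ± 0.22 and -0.39 ± 0.19 in T0 and of -0.08 ± 0.22 and -0.26 ± 0.19 in T3.

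mRpL13 (2L:18858028-18859248, minus strand) had the largest fall of the set in T0. It had 7.59, 9.25 and 7.65 CPM in T0, 8.43, 9.31 and 8.38 CPM in T3, and 12.3, 17.3 and 19.0 CPM in primary tumours. The allograft and primary libraries did not overlap, and the level was 0.505-fold that of primary tumours in T0 (adjusted p = 0.00342) and 0.538-fold in T3 (adjusted p = 0.00578). Of its 671 exon bases, 236 also belong to CG10602 on the same strand, so reads there could have been assigned to either gene. mRpL20 (3L:13017149-13017867, minus strand), whose bacterial counterpart binds ribosomal RNA early in large-subunit assembly, shares no exon bases with another gene. It had 13.9, 20.9 and 17.3 CPM in T0, 14.2, 20.1 and 18.2 CPM in T3, and 25.2, 34.6 and 35.7 CPM in primary tumours. Here too all allograft libraries were below all primary ones, with log2 fold changes of -0.87 ± 0.21 (adjusted p = 0.00484) in T0 and -0.86 ± 0.21 (adjusted p = 0.00499) in T3.

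mRpL44, a mitochondria-specific protein with a fold like that of ribonuclease III in humans, also fell. It (3R:5469463-5470636, minus strand) had 47.6, 53.8 and 46.6 CPM in T0, 48.3, 46.5 and 46.5 CPM in T3, and 58.4, 82.0 and 81.1 CPM in primary tumours. All allograft libraries were below the lowest primary library, and the gene fell by 0.58 in T0 (adjusted p = 0.00623) and by 0.65 in T3 on the log2 scale (adjusted p = 0.00333). Of the 1122 exon bases of mRpL44, 104 are shared with another gene on the opposite strand. mRpL47 (3R:9514822-9515908, minus strand), the counterpart of bacterial L29 at the exit of the peptide tunnel, had 19.9, 29.3 and 25.5 CPM in T0, 19.3, 28.9 and 23.1 CPM in T3, and 27.2, 50.8 and 47.9 CPM in primary tumours. Primary replicate 1 lay inside the allograft range. Its log2 fold changes were -0.75 ± 0.24 (adjusted p = 0.0246) in T0 and -0.82 ± 0.24 (adjusted p = 0.0153) in T3. The T0 call was lost without any 1 of primary replicates 2 and 4 and T0 replicates 2 and 4 (adjusted p = 0.105, 0.0888, 0.0827 and 0.0537), and the T3 call without primary replicate 2, primary replicate 4 or T3 replicate 1 (adjusted p = 0.0692, 0.0603 and 0.0684). mRpL36 (3L:8124584-8125132, minus strand), one of the smallest proteins of the bacterial large subunit, was called in T0 and not in T3. It had 13.5, 22.9 and 17.7 CPM in T0, 17.5, 31.5 and 23.3 CPM in T3, and 22.7, 39.8 and 32.1 CPM in primary tumours, so that each group overlapped the others. The log2 fold change was -0.80 ± 0.27 (adjusted p = 0.0274) in T0 and -0.40 ± 0.26 (adjusted p = 0.239) in T3, and the T0 call was lost without primary replicate 2 or 4 or T0 replicate 2 or 4 (adjusted p = 0.121, 0.0653, 0.0918 and 0.0665).

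**Figure D3:**
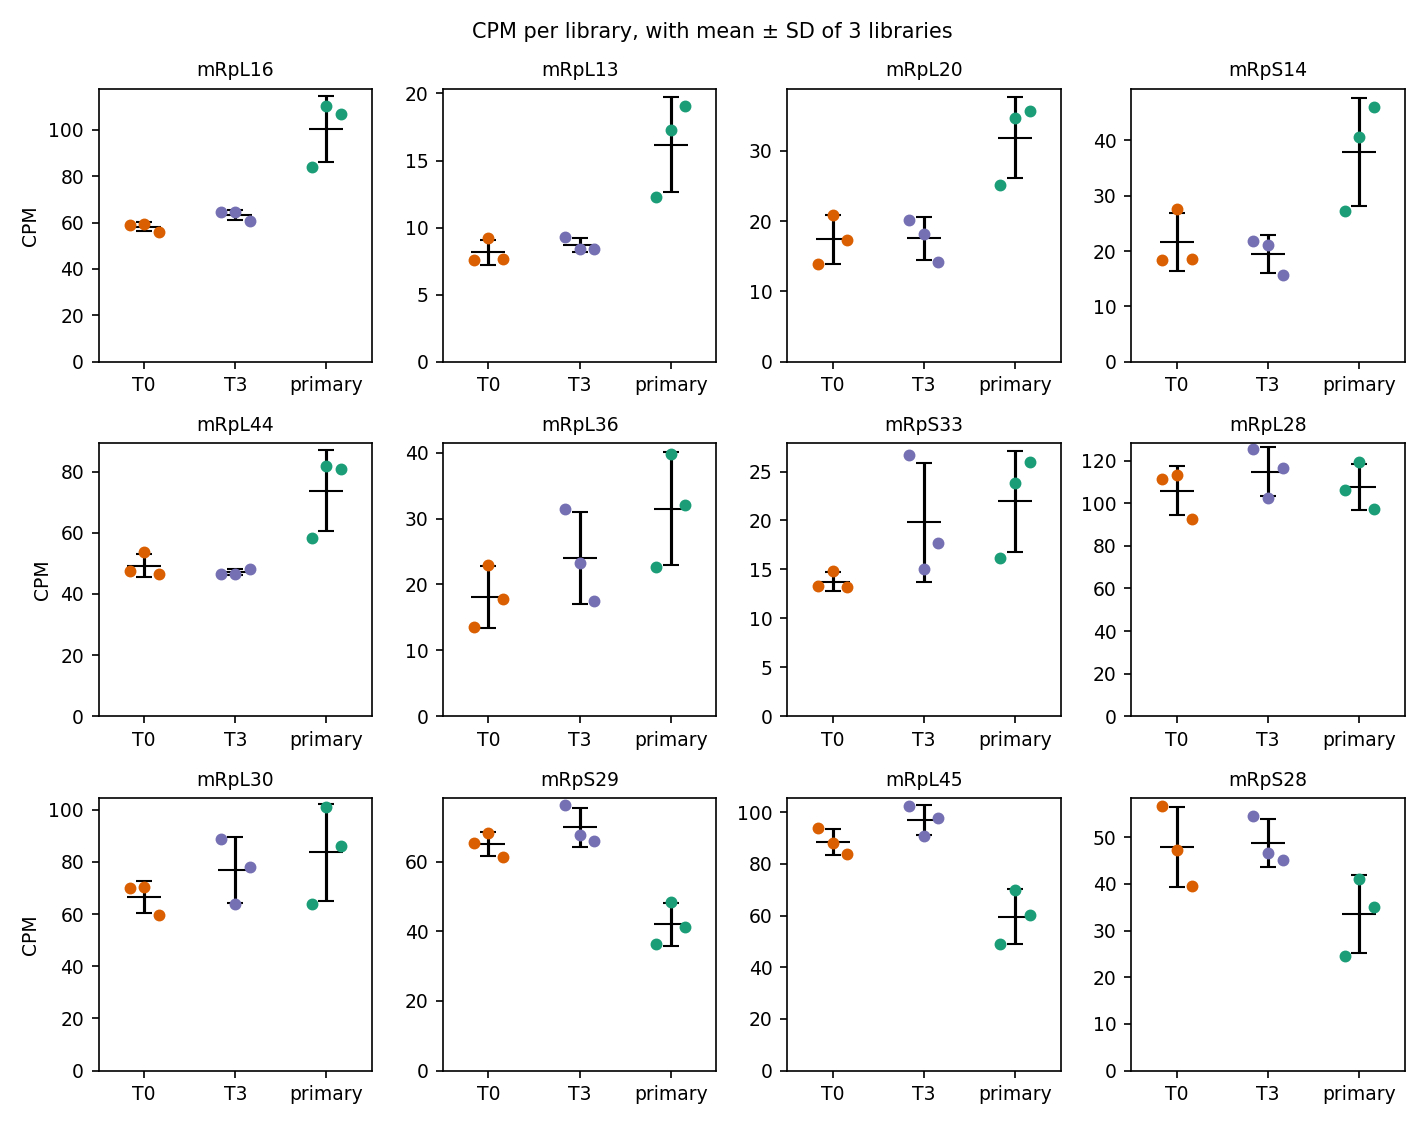
CPM in each library of 12 genes of the set by group, with mean ± SD of 3 libraries as bars and each vertical axis starting at 0. mRpL16, mRpL13, mRpL20 and mRpL44 are lower in all T0 and T3 libraries than in any primary library, mRpS29 and mRpL45 are higher in all of them, and mRpL28 and mRpL30 overlap between groups.

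Among the small-subunit proteins, 9 of 26 genes were called lower and 2 higher in T0, with a median log2 fold change of -0.17. In T3, 3 were called lower and 4 higher, with a median of 0.12. Over all genes tested, 23.2% were lower and 22.4% higher in T0, and 24.1% lower and 23.1% higher in T3. The small-subunit share called lower was thus above that of all genes in T0 and below it in T3. Its share called higher was below that of all genes in both comparisons. mRpS14 (X:19479382-19480238, minus strand), the counterpart of a bacterial protein in the head of the small subunit, had 18.5, 27.7 and 18.6 CPM in T0, 15.6, 21.9 and 21.1 CPM in T3, and 27.2, 40.7 and 46.1 CPM in primary tumours. T0 replicate 3 exceeded primary replicate 1 slightly, whereas all T3 libraries were below all primary ones. It fell by 0.81 in T0 (adjusted p = 0.0130) and by 0.96 in T3 on the log2 scale (adjusted p = 0.00528). The T0 call was lost without primary replicate 4 or without T0 replicate 4 (adjusted p = 0.0622 and 0.0511). Of its 797 exon bases, 30 are shared with another gene on the same strand and 255 on the opposite strand, and the strand setting of the counting is not given. The remaining genes lower in both comparisons were mRpS9, mRpS30 and mRpL14. Their log2 fold changes ran from -0.64 to -0.48 in T0 and from -0.63 to -0.48 in T3. Of the 1293 exon bases of mRpS9, 325 are shared with another gene on the opposite strand. The mammalian counterparts of mRpS30 and mRpS18A have been placed in the large subunit, so the symbol does not always give the position.

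mRpS29, known in mammals as DAP3 and the GTP-binding protein of the small subunit, rose most. mRpS29 (2R:22418937-22420376, minus strand) had 65.4, 68.2 and 61.3 CPM in T0, 65.9, 76.2 and 67.6 CPM in T3, and 36.3, 48.4 and 41.2 CPM in primary tumours. Every allograft library was above every primary library, and the level was 1.55-fold higher in T0 (adjusted p = 0.00250) and 1.66-fold higher in T3 (adjusted p = 9.03e-04). mRpL45 (3R:22618492-22619826, plus strand), which sits at the exit of the peptide tunnel and faces the inner membrane in mammals, had 93.8, 88.0 and 83.8 CPM in T0, 97.9, 102 and 90.7 CPM in T3, and 48.9, 70.0 and 60.1 CPM in primary tumours. Again the groups did not overlap, and its log2 fold changes were 0.57 ± 0.14 (adjusted p = 0.00601) in T0 and 0.70 ± 0.14 (adjusted p = 0.00170) in T3. It shares no exon bases with another gene. mRpL45 therefore rose while mRpL47 and mRpL44 fell in the same libraries. mRpS28 (2R:18614210-18615018, minus strand), related to bacterial S1, had 56.8, 47.3 and 39.6 CPM in T0, 45.2, 54.6 and 46.5 CPM in T3, and 24.5, 41.1 and 35.0 CPM in primary tumours. Its T0 and primary libraries overlapped, with a log2 fold change of 0.51 ± 0.19 (adjusted p = 0.0478) in T0 and 0.54 ± 0.19 (adjusted p = 0.0377) in T3. The T0 call held in 7 of 17 alternatives and the T3 call in 12 of 17. In T0 it was lost without primary replicate 1 or 4, T0 replicate 2 or 3, or any 1 of the T3 replicates (adjusted p = 0.0554 to 0.157), and with upper quartile factors, the 6 libraries compared or the replicate block (adjusted p = 0.0577, 0.0670 and 0.0951). In T3 it was lost without primary replicate 1 or 4 or any 1 of the T3 replicates (adjusted p = 0.0538 to 0.118).

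Another 4 genes rose in T3 against primary tumours and did not pass the test in T0. mRpL1 (3R:8301440-8302770, plus strand), counterpart of the bacterial protein of the L1 stalk where spent tRNA leaves, had 81.8, 84.1 and 70.8 CPM in T0, 85.3, 95.7 and 80.6 CPM in T3, and 51.6, 71.2 and 60.0 CPM in primary tumours. T3 and primary libraries did not overlap (log2 fold change 0.52 ± 0.14, adjusted p = 0.0112), and the T0 value of 0.37 ± 0.14 stood just outside the threshold (adjusted p = 0.0511). mRpS11 (3R:17072732-17073795, plus strand), whose bacterial counterpart lies on the platform of the small subunit, had 47.7, 39.6 and 40.5 CPM in T0, 56.0, 54.9 and 41.1 CPM in T3, and 27.9, 36.7 and 39.7 CPM in primary tumours. Its log2 fold change was 0.54 ± 0.17 (adjusted p = 0.0206) in T3 and 0.29 ± 0.17 (adjusted p = 0.182) in T0. mRpS22 (3R:27916908-27918248, plus strand), a mitochondria-specific protein, had 56.9, 57.1 and 48.6 CPM in T0, 56.4, 74.2 and 56.5 CPM in T3, and 37.6, 52.4 and 48.5 CPM in primary tumours. Its log2 fold change was 0.43 ± 0.16 (adjusted p = 0.0429) in T3 and 0.23 ± 0.16 (adjusted p = 0.263) in T0. The T3 calls of mRpS11 and mRpS22 were both lost without primary replicate 1 (adjusted p = 0.0551 and 0.126) and without T3 replicate 2 (adjusted p = 0.0667 and 0.183). That of mRpS11 was also lost without T3 replicate 1 (adjusted p = 0.0771), and that of mRpS22 without primary replicate 4 or T0 replicate 3 (adjusted p = 0.0742 and 0.0514). mRpL38 was the last of the 4, with a log2 fold change of 0.40 ± 0.15 (adjusted p = 0.0403) in T3 and 0.35 ± 0.15 (adjusted p = 0.0703) in T0.

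Proteins with a bacterial counterpart and those added in mitochondria were also counted apart, by the assignment of their mammalian relatives. Of 45 genes of bacterial descent, 16 fell and 1 rose in T0 and 8 fell and 3 rose in T3, with median log2 fold changes of -0.33 and -0.12. Of 27 tested mitochondria-specific genes, 6 fell and 2 rose in T0 and 2 fell and 4 rose in T3, with medians of -0.10 and -0.02. The shares called lower were thus 35.6% for bacterial descent and 22.2% for mitochondria-specific genes in T0, beside 23.2% of all genes. In T3 they were 17.8% and 7.41%, beside 24.1% of all genes. Shares called higher were 2.22% and 7.41% in T0 and 6.67% and 14.8% in T3, beside 22.4% and 23.1% of all genes. The difference between the 2 classes was not tested.

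A further 12 genes fell in T0 and did not pass the test in T3, namely mRpL21, mRpL33, mRpL35, mRpL36, mRpL52, mRpL55, mRpS2, mRpS7, mRpS10, mRpS18C, mRpS33 and mRpS35. Their log2 fold changes were -0.80 to -0.41 in T0 and -0.51 to -0.07 in T3. In the direct comparison of T3 with T0, none of the 72 genes was called by edgeR, DESeq2 or limma-voom, beside 0.0% called higher and 0.0% called lower among all genes by edgeR. At an unadjusted p under 0.05, edgeR gave 2 of the 72 genes, both higher in T3, beside 8.21% of all genes in either direction and 2.96% higher. Fitted log2 fold changes of T3 over T0 were above 0 for 66 of the 72 genes, against 48.1% of all genes tested, with a median of 0.19 over these genes and of -0.01 over all genes. None of these single-gene differences passed the test. All T3 libraries were above all T0 libraries for 13 of the 72 genes and below them for 0, against 7.33% and 7.8% of all genes.

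The 3 genes with the smallest p between T3 and T0 were mRpS7, mRpL40 and mRpS33. mRpS7 (2L:10386662-10387652, plus strand), whose bacterial counterpart starts assembly of the head of the small subunit, had 48.4, 45.5 and 42.0 CPM in T3 and 34.0, 37.2 and 35.7 CPM in T0, beside 41.3, 57.3 and 43.9 CPM in primary tumours. T3 lay above T0 in every library and overlapped the primary group. By edgeR its log2 fold change over T0 was 0.35 ± 0.15 (adjusted p = 0.591, unadjusted 0.0357). mRpL40 (3R:11407918-11408756, plus strand), a mitochondria-specific protein, had 29.6, 31.3 and 28.2 CPM in T3 and 26.3, 21.3 and 21.3 CPM in T0, beside 18.8, 24.8 and 26.1 CPM in primary tumours (log2 fold change over T0 0.37 ± 0.17, adjusted p = 0.591). mRpS33 (3R:16436045-16436597, minus strand), another mitochondria-specific protein, had 17.7, 26.7 and 15.1 CPM in T3 and 13.3, 14.8 and 13.2 CPM in T0, beside 16.1, 23.8 and 26.0 CPM in primary tumours (log2 fold change over T0 0.52 ± 0.24, adjusted p = 0.591). The highest T3 value of mRpS33 came from replicate 2, the library with the fewest counts. In T0 against primary tumours, mRpS7 and mRpS33 were called lower (adjusted p = 0.0355 and 0.0364), in 9 and 12 of the 17 alternatives. The mRpS7 call was lost without primary replicate 2 (adjusted p = 0.161), without any 1 of the T0 replicates or T3 replicate 2 (adjusted p = 0.0521 to 0.0865), and in 3 fits that kept all libraries of both groups (adjusted p = 0.0550 with no filter, 0.0706 with the 6 libraries compared and 0.0696 with the replicate block). The mRpS33 call was lost without primary replicate 2 or 4 (adjusted p = 0.101 and 0.132) and without any 1 of the T0 replicates (adjusted p = 0.0542 to 0.0928).

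Libraries within a group also differed across the whole set. Primary replicate 1 was the lowest primary library for 70 of the 72 genes, against 41.4% of all genes, and lay a median of 0.52 below the mean of the other 2 primary libraries on the log2 scale. Primary replicate 2 lay above the mean of the other 2 for 72 of 72 genes, by a median of 0.30. T3 replicate 2 was the highest T3 library for 59 of 72 genes, against 28.5% of all genes, by a median of 0.24, and T0 replicate 3 the highest T0 library for 47 of 72, by a median of 0.15. Without T3 replicate 2, the median log2 fold change of T3 over T0 was 0.10 and 56 of 72 values were above 0. Without primary replicate 2, the T3 over primary median changed sign, to 0.06.

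**Figure D4:**
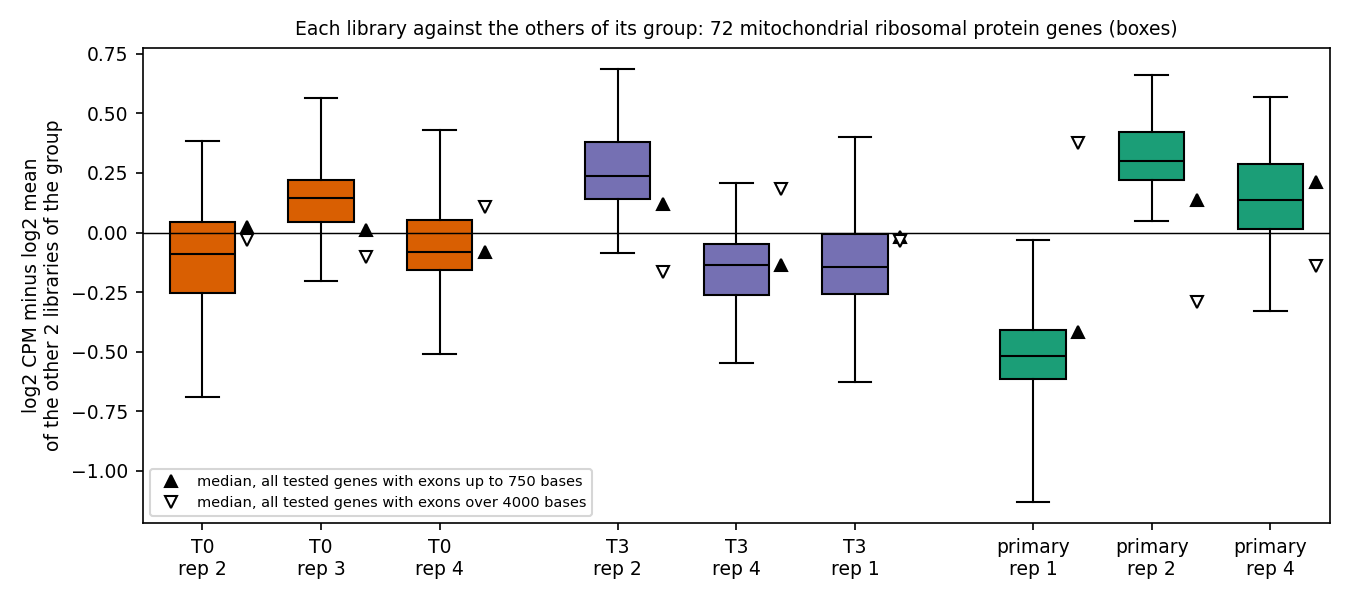
For each library, the log2 CPM (pseudocount 0.5 CPM) of the 72 tested genes minus the log2 mean of the other 2 libraries of its group. Boxes show the quartiles with whiskers to the extremes, and triangles the medians of all tested genes with exons up to 750 bases or over 4000 bases. All 72 genes lie below 0 in primary replicate 1 and above 0 in primary replicate 2, and the short-gene and long-gene medians part most in primary replicate 1.

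Gene length moved with these library differences. The tested genes of the set are short, with a median exon length of 783 bases (327 to 2078), against 2149 bases for all genes tested with a position. In primary replicate 1, all genes with exons of up to 750 bases lay a median of 0.42 below the other primary libraries and genes with exons over 4000 bases lay 0.38 above, on the log2 scale. In T3 replicate 2 the medians were 0.12 for the short genes and -0.17 for the long genes. In T3 over T0, all 744 genes with exons of up to 750 bases had a median log2 fold change of 0.13 and the 33 ribosomal genes among them 0.24, while genes over 4000 bases had -0.22. In T0 over primary, all genes of up to 750 bases had a median of -0.06 and the 33 ribosomal genes -0.33. In T3 over primary these medians were 0.06 and -0.11. The part of length in the results was not tested.

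Levels per length placed the set well above the middle of the transcriptome and far below the cytoplasmic ribosome. The median over the 72 genes was 39.7 CPM per kilobase of exon in T0, 46.6 in T3 and 46.8 in primary tumours, against 16.3, 16.4 and 14.69 CPM per kilobase over all genes tested. The cytoplasmic ribosomal protein genes tested had medians of 2224, 2334 and 2249 CPM per kilobase in T0, T3 and primary tumours. By the mean over all 9 libraries, the highest of the set per length were mRpL30 and mRpL28, counterparts of large-subunit proteins of bacteria. mRpL30 (X:4647871-4648646, plus strand) averaged 95.8, 110.5 and 120.2 CPM per kilobase in T0, T3 and primary tumours, and mRpL28 (2L:4973976-4975316, plus strand) averaged 90.5, 98.2 and 91.9 CPM per kilobase. In primary tumours mRpL16 (93.2 CPM per kilobase) and mRpL12 (91.6) stood beside mRpL28, while in T0 and T3 they averaged 54.0 and 58.8 (mRpL16) and 60.6 and 64.3 CPM per kilobase (mRpL12). mRpL28 had 112, 113 and 92.8 CPM in T0, 117, 125 and 103 CPM in T3, and 106, 119 and 97.5 CPM in primary tumours, with overlapping groups. mRpL30 had 69.8, 70.5 and 59.6 CPM in T0, 78.1, 88.8 and 63.7 CPM in T3, and 63.8, 101 and 86.2 CPM in primary tumours. Per kilobase, their ranges over libraries overlapped in every group. Neither passed the test in T0 (adjusted p = 0.905 for mRpL28 and 0.151 for mRpL30) or T3, although mRpL30 was called lower in T0 without primary replicate 1 (adjusted p = 0.0351).

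The lowest per length were mRpL21, at 9.66, 13.0 and 14.6 CPM per kilobase, and mRpL13, at 12.2, 13.0 and 24.1 CPM per kilobase, in T0, T3 and primary tumours. mRpL21 (3L:19253290-19255061, minus strand), the counterpart of bacterial L21, had 15.3, 16.2 and 17.7 CPM in T0, 20.2, 25.3 and 20.6 CPM in T3, and 20.3, 33.1 and 21.1 CPM in primary tumours. All T0 libraries were below all others, with a log2 fold change of -0.60 ± 0.21 over primary (adjusted p = 0.0318), but the call held in 11 of 17 alternatives. It was lost without primary replicate 2 (adjusted p = 0.161), without T0 replicate 2, 3 or 4 (adjusted p = 0.0827, 0.0729 and 0.0513), with only the 6 libraries compared (adjusted p = 0.0527) and with the replicate block (adjusted p = 0.0506). From the lowest to the highest gene, levels per length spanned 9.91-fold in T0, 8.51-fold in T3 and 8.21-fold in primary tumours. Between the quartiles, the genes spanned 1.77-fold in T0, 1.83-fold in T3 and 1.45-fold in primary tumours. Per library, the SD over the 72 genes of log2 CPM per kilobase was 0.562 to 0.696 in T0, 0.591 to 0.625 in T3 and 0.509 to 0.525 in primary tumours, without overlap between allograft and primary libraries. The same SD (with a pseudocount of 0.5 CPM) over the 32 complex I genes was 0.866 to 0.903 in T0, 0.887 to 0.923 in T3 and 0.951 to 1.02 in primary tumours. Over the 83 cytoplasmic ribosomal protein genes it was 1.58 to 1.67 in T0, 1.53 to 1.64 in T3 and 1.40 to 1.49 in primary tumours, and over 8949 genes tested 2.60 to 2.76 in T0, 2.67 to 2.74 in T3 and 2.42 to 2.55 in primary tumours. The SD was thus higher in allograft than in primary libraries for these 2 sets of genes too, and lower for the complex I genes. Across the 72 genes, the T0 over primary log2 fold change had a Pearson r of 0.39 with the log2 mean level per length and of 0.25 with log2 exon length, and the T3 values were 0.32 and 0.15. These describe genes measured in the same 9 libraries, which are not independent.

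The 73 genes lie scattered over the genome, with 11 on X, 12 on 2L, 12 on 2R, 17 on 3L and 21 on 3R. A divergently transcribed protein-coding neighbour within 500 bases of the start was annotated for 51 of the 73 (69.9%), against 33.9% of all protein-coding genes tested. In the 47 pairs in which both genes were matched and tested, the log2 fold changes of the 2 partners had a Pearson r of 0.08 in T0 and 0.07 in T3. Of the 13 such genes lower in T0, 5 had a partner called lower, 2 a partner called higher and 6 a partner not called, beside 27.7% of all 47 partners called lower and 14.9% called higher. Of the 5 lower in T3, 2 had a partner called lower, 1 a partner called higher and 2 a partner not called, beside 25.5% and 12.8% of all partners. mRpL55 and its partner ATPsyn-d, a subunit of ATP synthase whose start lies 95 bases away, both fell in T0 (log2 fold changes -0.61 and -0.73), whereas mRpL20 fell beside a rise of ste14 (-0.87 and 0.64). mRpS11, called higher in T3, lies 57 bases from Ns1, which fell in T0 (-0.55) and had a log2 fold change of -0.31 in T3 (adjusted p = 0.0969).

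One gene, mRpL53 (2R:13954195-13955664, plus strand), had 0 counts in all 9 libraries and was not tested. All 829 of its exon bases are annotated on the same strand for another gene, so its level cannot be read from these counts. In all, 43 of the 73 genes share exon bases with another gene on either strand, 34 of them fewer than 100 bases. The 30 genes that share none had 12 lower and 1 higher in T0 and 4 lower and 3 higher in T3. The 42 tested genes that share exon bases had 10 lower and 2 higher in T0 and 6 lower and 4 higher in T3. Shares over all genes tested were 23.2% lower and 22.4% higher in T0, and 24.1% lower and 23.1% higher in T3. Genes that share none were thus called lower more often than all genes in T0 and less often in T3. The difference between these classes was not tested.

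Other genes of mitochondrial gene expression were described from lists of known genes. Among all genes tested, 22.4% were called higher and 23.2% lower in T0, and 23.1% higher and 24.1% lower in T3. Of the ribosomal proteins with other names, tko and bonsai, bonsai (counterpart of bacterial S15) fell to 42.7 ± 5.39 CPM in T0 and 44.5 ± 3.97 CPM in T3, against 62.7 ± 10.7 CPM in primary tumours (SD, n = 3 each, adjusted p = 0.0117 and 0.0194), and tko was not called. Of the translation factors that act on this ribosome, 4 of 10 tested genes rose and 0 fell in each comparison, with median log2 fold changes of 0.13 in T0 and 0.25 in T3. mEFTu2 (CG12736 in the table), an elongation factor that delivers charged tRNA, had 84.9, 71.5 and 71.1 CPM in T0, 76.4, 82.2 and 78.3 CPM in T3, and 34.9, 44.2 and 40.1 CPM in primary tumours. It thus rose by 0.93 ± 0.13 in T0 (adjusted p = 1.53e-04) and by 0.99 ± 0.13 in T3 on the log2 scale (adjusted p = 8.63e-05). The initiation factor mIF3 (CG13163) rose in T0 (log2 fold change 1.17 ± 0.37, adjusted p = 0.0214), and the recycling factor mRRF1 (CG4447) rose in both (0.82 and 0.75). In T3, mIF3 had 39.4, 10.8 and 33.2 CPM, beside 11.9, 17.6 and 12.6 CPM in primary tumours. T3 replicate 2 thus lay below all primary libraries for mIF3. Of 17 genes listed as mitochondrial aminoacyl-tRNA synthetases, 3 rose and 1 fell in T0 and 5 rose and 1 fell in T3. The 5 include Slimp (log2 fold change 0.95 ± 0.21, adjusted p = 0.00256), whose activity as a synthetase was not examined here. Of 14 genes for mitochondrial DNA and RNA maintenance, 2 rose and 1 fell in T0 and 6 rose and 0 fell in T3. In that list the mitochondrial RNA polymerase mtRNApol had 70.5, 80.2 and 80.1 CPM in T0, 75.3, 85.2 and 80.5 CPM in T3, and 51.5, 47.4 and 41.9 CPM in primary tumours (log2 fold changes 0.71 and 0.77). TFAM, the protein that packages mitochondrial DNA, fell in T0 (-0.40 ± 0.12, adjusted p = 0.0197). Messenger RNAs encoded in mitochondrial DNA were not analysed here.

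Genes whose products meet the mitochondrial ribosome or its products included 3 lists with larger shares called lower than the ribosomal set. For import and folding, 8 of 13 tested genes fell in T0 and 7 in T3, none rose, and the medians were -0.49 and -0.36. Hsc70-5, the chaperone that pulls proteins into the matrix, had 237, 191 and 199 CPM in T0, 271, 268 and 195 CPM in T3, and 423, 413 and 307 CPM in primary tumours (log2 fold changes -0.87 and -0.64). Of the nuclear subunits of complex I, 11 of 32 (34.4%) fell in T0 and 7 (21.9%) in T3, beside 23.2% and 24.1% of all genes tested. The T3 share was thus below that of all genes. None of these subunits rose, and the medians were -0.33 and -0.24. Of those of complexes III, IV and V, 25 of 30 fell in T0 and 22 in T3, 1 rose in each, and the median was -0.60 in both. COX7A (CG9603), a subunit of cytochrome c oxidase, averaged 122 ± 7.01 CPM in T0, 113 ± 17.3 CPM in T3 and 227 ± 43.5 CPM in primary tumours (SD, n = 3 each, adjusted p = 9.74e-04 and 3.87e-04). Cytoplasmic ribosomal protein genes were called in 2 of 83 cases in each comparison, RpS2 and RpS19b, both lower, with medians of 0.05 and 0.04. The difference between lists was not tested.

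**Figure D5:**
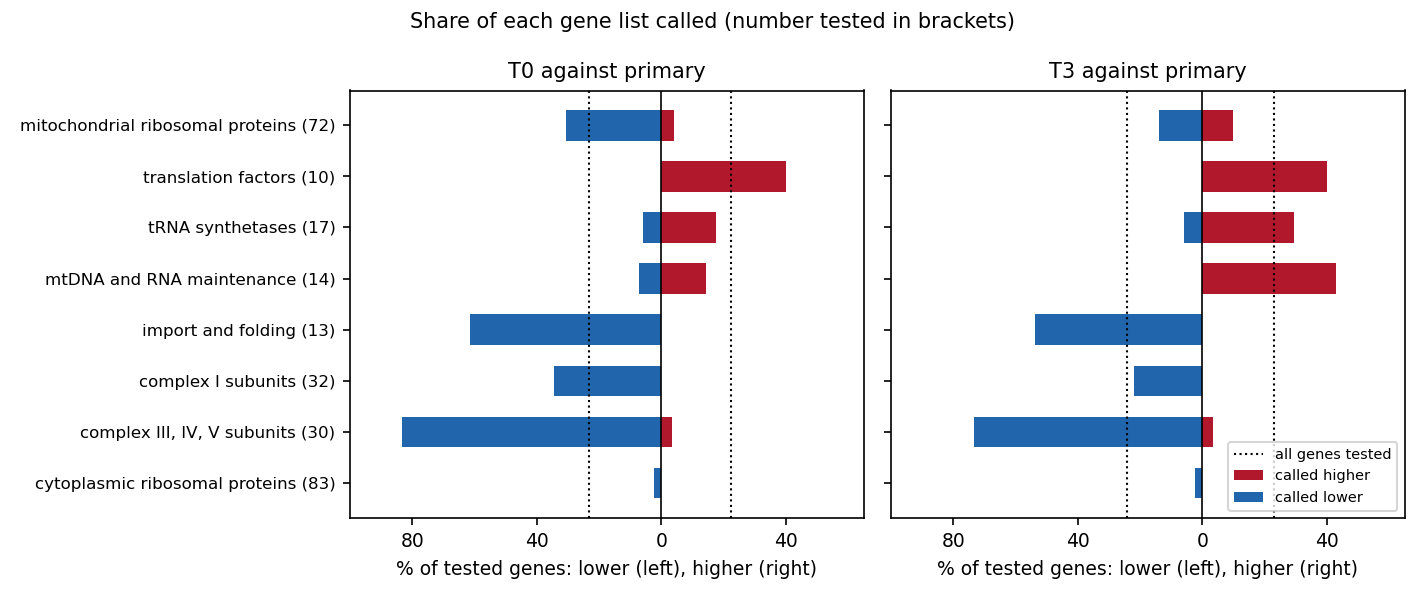
Percent of the tested genes of each list called lower (bars to the left) and higher (bars to the right) in T0 against primary and T3 against primary, with dotted lines at the share of all genes tested. The ribosomal set stands at 30.6% lower in T0 and 13.9% in T3, while complexes III, IV and V stand at 83.3% and 73.3% lower.

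Of 10 listed regulators of nuclear genes for mitochondrial proteins, 4 rose and 2 fell in T0, and 3 rose and 2 fell in T3. Over all genes tested, the shares were 22.4% higher and 23.2% lower in T0, and 23.1% higher and 24.1% lower in T3. Dref, a transcription factor known to bind promoters of growth and replication genes, had 96.2, 176 and 156 CPM in T0, 154, 154 and 152 CPM in T3, and 311, 317 and 298 CPM in primary tumours. It fell by 1.11 in T0 and by 1.01 in T3 on the log2 scale (adjusted p = 5.41e-04 and 9.47e-04). Mnt, a repressor that competes with Myc for a shared partner, fell by 1.59 and 1.81. Myc itself (dm in the table) had 393, 302 and 539 CPM in T0, 440.5, 405 and 423 CPM in T3, and 286, 202 and 176 CPM in primary tumours, with a log2 fold change of 0.94 ± 0.22 in T3 (adjusted p = 0.00444).

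Markers of several cell types were also summed, and some sums differed between the groups while others overlapped. The 7 neuroblast markers summed to 4002 to 4892 CPM in T0, 3981 to 4332 CPM in T3 and 3810 to 4339 CPM in primary tumours, so these markers were present in all groups. Single markers went both ways. In T0, grh, klu and mira were called higher and ase, dpn and wor lower, and in T3 mira was called higher and ase and dpn lower. Among them, dpn averaged 253 CPM in T0, 243 CPM in T3 and 639 CPM in primary tumours (adjusted p = 2.18e-04 and 1.43e-04), and all libraries overexpress it from UAS-HA-dpn, so it is not a plain identity marker here. The 5 neuron markers summed to 141 to 204 CPM in T0, 97.1 to 146 CPM in T3 and 723 to 1260 CPM in primary tumours. The 8 hemocyte markers summed to 81.3 to 356 CPM in T0, 77.7 to 118 CPM in T3 and 14.8 to 29.1 CPM in primary tumours, where He was at 0. Ppn made up most of the allograft sums, with means of 170 CPM in T0, 75.0 CPM in T3 and 11.2 CPM in primary tumours. Of the 7 hemocyte markers tested, 5 were called higher and 0 lower in T0. In T3, 5 were called higher and 1 lower, with log2 fold changes from -1.98 to 4.86. The 8 fat body markers summed to 107 to 265 CPM in T0, 17.5 to 95.9 CPM in T3 and 8.62 to 16.7 CPM in primary tumours, with Fbp1 at 0 in T0 and Lsp2 and AkhR at 0 in primary tumours. The 10 muscle markers summed to between 4.78 and 11.2 CPM in all libraries, with fln at 0 in T0 and T3 and up and wupA at 0 in primary tumours. Of the 5 muscle markers tested, only Mf was called, higher in both T0 and T3 (log2 fold changes 4.23 and 3.91). Its means were 1.22 CPM in T0, 0.940 CPM in T3 and 0.0487 CPM in primary tumours. The 6 gut markers summed to 2.35 to 54.4 CPM in T0, highest in replicate 2, to 0.440 to 2.01 CPM in T3 and to at most 0.365 CPM in primary tumours, where Jon65Aiv, alphaTry and betaTry were at 0. The 6 ovary markers summed to 8.02 to 55.6 CPM in T0, also highest in replicate 2, to 5.30 to 17.9 CPM in T3, where Cp36 was at 0, and to 11.35 to 17.23 CPM in primary tumours. In T0, the ovary marker bam was called lower and yl higher (log2 fold changes -2.47 and 5.03). The T0 libraries had 27.7, 3.39 and 1.91 CPM of yl. Glial markers, 5 in all, summed to 661 to 889 CPM in T0, 463 to 706 CPM in T3 and 418 to 591 CPM in primary tumours. Eaat1 alone averaged 510 CPM in T0, 366 CPM in T3 and 192 CPM in primary tumours and was called higher in both (adjusted p = 4.75e-04 and 0.00594). Of the others, repo and Gs2 were called lower in T0 (log2 fold changes -2.49 and -3.38) and Gs2 and nrv2 lower in T3 (-4.34 and -0.50). The part of all these markers in the ribosomal results was not tested, and sorting, transplantation and the host's adult body cannot be told apart in either comparison with primary tumours.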

How the data were processed

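Per the labels, libraries of polyadenylated RNA were amplified for 13 cycles and read from 1 end over 75 nt. HTSeq, edgeR, HISAT2 2.1.0, bedtools 2.25.0 and the build dm6 are listed in the submitters' processing notes. For the annotation release and the strand setting, the sources used here give nothing. The authors deposited raw read counts for 16727 genes in 3 tables with identical counts, beside their log2 fold changes and adjusted p-values. Their 9 columns of normalised values and 3 of group means per table were not used.

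Tests on the counts used edgeR 4.0.16 (R 4.3.3) with TMM scaling, filterByExpr (minimum count 10) and 1 quasi-likelihood fit over 9 libraries, two-sided, with Benjamini-Hochberg adjustment over 9082 genes and a threshold of 0.05. SE is the log2 fold change divided by the square root of F. CPM use TMM-scaled library sizes, and T0 values are given in the order of replicates 2, 3 and 4, T3 and primary values in the order 1, 2 and 4. Counting error, which depth sets, is only part of the error, since PCR duplicates cannot be recognised. Chi-square over degrees of freedom between replicates of a group was 14.5 to 72.5, so none is a repeated library. Exon lengths, neighbours and positions were read from Ensembl's dm6 annotation, and symbols were matched through reference synonyms. Named are the 6 called genes with the most negative and the 6 with the most positive change per comparison with primary tumours, the 3 with the smallest p in T3 against T0, and the 2 highest and 2 lowest per length. Of other lists, up to 3 called genes per comparison could be named. mRpL12, mRpL10, mRpL11, mRpL38, the neighbour pairs and the neuroblast markers klu, mira and wor in T0 were named after their values were seen.

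Alternatives were RLE and upper quartile factors, no filter, at least 1 CPM in 3 libraries, DESeq2 1.42.0, limma-voom (3.58.1), the 6 libraries compared, a replicate block and leaving out each library. The procedure was also run on simulated counts with the same dispersion for every gene and no shift shared by genes of a library. That run therefore does not cover the library differences described above. The genes, lists and tests were chosen with earlier results of these data known. In the authors' deposited table, 3 of these genes were higher and 23 lower in T0, 7 higher and 10 lower in T3, and 0 called in T3 against T0. All 25 and 17 called here were among them.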

Additional observations from a re-analysis of the deposited data

How the results depend on the processing

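Scaling, filters, DESeq2, limma-voom and fitting only the 6 libraries compared left every count of called genes within 1.5 times and every median on the same side of 0. Leaving out 1 library moved the counts. Genes called lower in T0 numbered 7 to 35, genes called higher in T0 2 to 5 (5 without primary replicate 2), genes called higher in T3 3 to 9 (3 without primary replicate 1 or T3 replicate 2, 4 without primary replicate 4 or T3 replicate 1), and genes called lower in T3 7 to 16 (16 without primary replicate 1). Medians ranged from -0.44 to -0.15 in T0, from -0.25 to 0.06 in T3 and from 0.10 to 0.24 in T3 over T0, where none of these genes was called in any alternative. Where 1 library of a group is left out, 2 remain. The named genes gave 323 results under alternatives in each comparison. These include named genes that were not called there and so had no call to lose. In T0, 39 results lost the call and 4 gained one, and in T3, 15 lost it. Among called genes alone, the share lost is therefore higher than a share of 323. None reversed while called.

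Nothing in the labels ties libraries with the same replicate number. Same-numbered libraries deviated together with correlations of -0.06 to 0.15 between primary and allograft groups. Between T0 and T3 the correlations were 0.20 for number 2 and 0.26 for number 4. Differently numbered libraries were not compared, so these values cannot decide whether libraries are paired. With the replicate number as a block, 2 genes were higher and 24 lower in T0 (median -0.44), 8 higher and 10 lower in T3 (median -0.07), and 0 called in T3 over T0 (median 0.31, with 72 of 72 above 0).

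Precision is limited by 3 libraries per group. T3 replicate 2, which moved several counts, had the fewest counts, 7932772.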
